A study of Mus musculus with 2 samples.

Results

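The interferon regulatory factors are a family of DNA-binding proteins, and the members described here are the 8 genes *Irf1*, *Irf2*, *Irf3*, *Irf4*, *Irf5*, *Irf7*, *Irf8* and *Irf9*, of 31253 genes listed. They were picked by name, in a set proposed with earlier results of these data known, and all 8 had unique molecular identifiers (UMIs, tags that count captured mRNA molecules) in both libraries. The samples were 2 libraries of Cd45+ (immune) cells from B16-F10 melanoma, a tumor line of the mouse, taken on day 10 after subcutaneous injection of 200000 cells into female C57BL/6 mice (8 to 10 weeks old in the methods for tumor models, 6 to 10 weeks in those for animals). One was labelled *Irg1*+/+ and the other *Irg1*-/-, *Irg1* being the gene listed as *Acod1*, which makes itaconate in activated myeloid cells. The *Irg1*-/- mice had been backcrossed to C57BL/6J, and the labels name no other allele and no treatment in either group. In each group tumor pieces of 100 mm3 from 3 mice were pooled into 1 sample, so there was 1 library per genotype, no replicate and no test between genotypes. Whatever else differed between the pools cannot be told apart from the genotype. Where 2 values are given below, the first is from the library labelled *Irg1*+/+ and the second from the library labelled *Irg1*-/-.

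Proteins of this family share a DNA-binding domain that recognises GAAA repeats, the core of the interferon-stimulated response element. *Irf3*, *Irf5* and *Irf7* are activated by phosphorylation after nucleic acid sensing and switch on interferon genes, *Irf9* is the DNA-binding part of the complex ISGF3 that carries the type I interferon signal, *Irf1* is induced by interferon gamma, and *Irf2* can occupy the same sites and counter *Irf1*. *Irf4* and *Irf8* bind DNA weakly alone, pair with ETS or BATF family proteins, and are known for the development of dendritic cells, B cells and, for *Irf8*, monocytes.

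The deposited libraries held 6408 and 5896 cells, with 6000 cells sorted per sample according to the labels, and 43617546 and 36432067 UMIs. After cells with at least 10% mitochondrial UMIs were removed, 6284 and 5794 cells were kept, at medians of 4528 and 4594.5 UMIs per cell outside mitochondrial genes. The members together had 73133 and 81227 UMIs. Of the cell barcodes, 36 were found in both libraries, and leaving those cells out moved no level or ratio by more than its spread from counting. The files name no cell types, so each cell was gated by a score over 5 to 7 marker genes of 15 immune and tumor cell types, none of them a member. Names such as cDC1 stand for cDC1-like cells, and a gate is a range of the score. It took in 5278 and 4912 cells, of which 611 and 616 led the next type by less than 0.1 in score, and left 16.0% and 15.2% of the cells unnamed. In classical monocytes the median score was 0.440 and 0.466 for their own markers and 0.163 and 0.168 for those of macrophages, the next highest. In macrophages it was 0.477 and 0.490 against 0.180 and 0.232 for classical monocyte markers.

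T cells were divided further by *Foxp3*, *Cd4*, *Cd8a* and *Cd8b1*. The remainder, called other T cells, was led by *Trgc1* and *Trdc*, genes of gamma-delta T cell receptors. Counts of members over types cover the 13 types with at least 50 cells in each library. Of 56 markers held out of the gates, 54 were higher in their own type than in the other gated cells in both libraries, and 1, *Epx* of eosinophils, had no UMI. Fewer, 43 of 56, were highest in their own type among all types, and for cDC2 and classical monocytes this was 2 of 6 each. Plasmacytoid dendritic cells (pDC; 52 and 44 cells) and nonclassical monocytes (54 and 43 cells) are described but stay outside these counts. Levels are the summed UMIs of a gate scaled to its total (counts per 10 to the power of 6, CPM) with exact Poisson 95% intervals in parentheses, and these, like all intervals here, cover counting error only. Since 3′ tags were counted, a gene was compared across cell types and libraries and not with another gene.

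*Acod1* cannot serve as a check of the labels here. Over all kept cells it stood at 87.8 (85.0 to 90.7) and 108 (104 to 111) CPM, so the log2 ratio of the library labelled *Irg1*-/- over the other was 0.30 (0.23 to 0.36) and the gene named in the labels was not the lower one there. The sources used here do not give the deleted part, 3′ tags may lie outside it, and every direction below rests on the labels. In neutrophils, where *Acod1* was highest, it was at 2294 and 1957 CPM, and in macrophages at 103 and 138 CPM.

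The genes lie on 6 chromosomes of GRCm38 (GENCODE release 21): *Irf1* at chr11:53770014-53778374, *Irf2* at chr8:46739732-46847458, *Irf3* at chr7:44997648-45002848, *Irf4* at chr13:30749226-30766976, *Irf5* at chr6:29526625-29541871, *Irf7* at chr7:141262706-141266481, *Irf8* at chr8:120736358-120756694 and *Irf9* at chr14:55603571-55610030. All lie on the plus strand except *Irf7*. The 3′ end of *Irf5* shares 1045 bases with *Tnpo3* on the opposite strand, a gene with 1777 and 1322 UMIs, and the 3′ end of *Irf7* shares 45 bases with *Phrf1* (939 and 800 UMIs), also on the opposite strand. At the 5′ end *Irf3* shares 1065 bases with *Bcl2l12* on the opposite strand (117 and 74 UMIs) and *Irf9* shares 123 bases with *Rnf31* on its own strand (472 and 393 UMIs). *Irf8* shares all its 20337 bases with *Gm20388* on its own strand, which had 0 UMIs in both libraries. On the opposite strand, *Irf1* shares 907 bases with *Gm17334* and *Irf2* shares 1723 bases with *Gm45479* (13 and 8 UMIs). The sources do not say whether counting used strand, so reads from these stretches cannot be told apart, above all for *Irf5*.

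Promoters are shown because several members are themselves induced by interferon, which is known to act through 2 short motifs, the gamma-activated site TTCNNNGAA and the interferon-stimulated response element, searched as GAAANNGAAA. RefSeq promoters (GRCm38.p6, 250 bases before to 50 bases after a start site) were found for 8 of 8 members, with 11 start sites, and both strands were searched. The first motif was in 8.30% and the second in 3.44% of 32851 promoters. Among the members *Irf1*, *Irf2* and *Irf8* had the first and *Irf2* also the second. The stretches around the matches, 5′ to 3′ on the gene's strand with the motifs in capitals, are chr11:53769884-53769972 for *Irf1*, chr8:46739495-46739569 for *Irf2* and chr8:120736147-120736253 for *Irf8*:
Irf1: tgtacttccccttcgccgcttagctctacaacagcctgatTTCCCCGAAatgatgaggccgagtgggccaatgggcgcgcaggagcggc
Irf2: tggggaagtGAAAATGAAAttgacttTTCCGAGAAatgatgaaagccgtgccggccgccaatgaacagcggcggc
Irf8: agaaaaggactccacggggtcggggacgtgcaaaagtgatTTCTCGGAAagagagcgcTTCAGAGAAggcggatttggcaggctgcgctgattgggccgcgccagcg
The *Irf1* motif lies 90 to 82 bases before its start site, and *Irf8* holds a pair, 171 to 163 and 153 to 145 bases before. In *Irf2* the response element comes first, 241 to 232 bases before, and the gamma-activated site 224 to 216 bases before. For *Irf3*, *Irf4*, *Irf5*, *Irf7* and *Irf9* these letters were not in the window, which says nothing of the factors that bind there.

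*Irf8* and *Irf4*, the members that pair with ETS and BATF proteins, stood in opposite order in the 2 kinds of classical dendritic cells. *Irf8* was highest in pDC, at 2585 CPM (2405 to 2774) and 2134 CPM (1956 to 2323). Next came NK cells at 1578 (1505 to 1653) and 1802 (1741 to 1864) CPM and cDC1, the cross-presenting dendritic cells, at 1569 (1524 to 1615) and 1636 (1579 to 1696) CPM. NK cells and cDC1 did not differ beyond their intervals in the library labelled *Irg1*+/+, but NK cells were above cDC1 in the library labelled *Irg1*-/-. Mature dendritic cells, marked by *Ccr7* and *Fscn1*, followed at 1033 and 1216 CPM, then B cells at 591 and 666 CPM. cDC2, which present antigen to CD4 T cells, were at 400.4 and 388 CPM, against 400 and 477 CPM in classical monocytes, with intervals that overlapped in the first library. Conventional CD4 T cells were the lowest in the first library at 120.0 CPM (91.4 to 155), 21.5-fold below pDC. RNA free in the suspension, had it brought *Irf8* in the same proportion to its library-wide level as the macrophage gene *C1qa*, would give 103 CPM there and 108 CPM in the second library (182 CPM measured), so most of this level was at background. In the second library eosinophils had the lowest value, 143 CPM from 15 UMIs.

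*Irf4* had another order. B cells, in which *Irf4* directs plasma cell differentiation, had the highest level of the types with at least 40 cells in each library, at 192 CPM (129 to 276) and 322 CPM (243 to 418). The 7 and 8 gated plasma cells had 219 CPM (116 to 374) and 200.3 CPM (119 to 317), on 13 and 18 UMIs. In cDC2 it stood at 123 CPM (105 to 144) and 135 CPM (118 to 153), and in cDC1 at 12.8 CPM (9.05 to 17.6) and 8.05 CPM (4.51 to 13.3). Among T cells *Irf4*, which antigen receptor signals induce, was at 88.3 and 126 CPM in regulatory T cells, 99.7 and 75.8 CPM in conventional CD4 T cells and 84.3 and 57.9 CPM in CD8 T cells. NK cells, near the top for *Irf8*, were at 9.83 (4.91 to 17.6) and 10.2 (6.17 to 16.0) CPM, in the same range as cDC1. Free RNA in proportion to *C1qa* would give 8.53 and 10.1 CPM in cDC1 and 8.21 and 9.06 CPM in NK cells, so *Irf4* in these types was at or near background. Classical monocytes had 24.4 and 24.0 CPM and macrophages 15.03 and 14.83 CPM. Eosinophils had 0 and 2 UMIs of *Irf4*, where the limit for a count of 0 was set at 3 UMIs.

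Expressed as *Irf4* UMIs per 100 *Irf8* UMIs, a ratio free of the depth of a gate, cDC2 had 30.8 (25.5 to 37.0) and 34.8, and cDC1 had 0.815 (0.576 to 1.12) and 0.492 (0.275 to 0.813). The intervals of the 2 dendritic cell types were far apart in both libraries, with *Irf4* of cDC1 near the level of free RNA. Mature dendritic cells lay between them, at 5.86 and 3.86, as did pDC at 3.13 and 4.50. Classical monocytes had 6.09 and 5.03 and macrophages 4.87 and 3.66. B cells had 32.6 and 48.3, regulatory T cells 27.1 and 36.5 and NK cells 0.623 and 0.569. Conventional CD4 T cells had 83.1 and 41.7, on *Irf8* levels mostly at background. In CD8 T cells the ratio was 23.0 and 12.1, with *Irf4* lower and *Irf8* higher in the library labelled *Irg1*-/-.

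**Figure D1:**
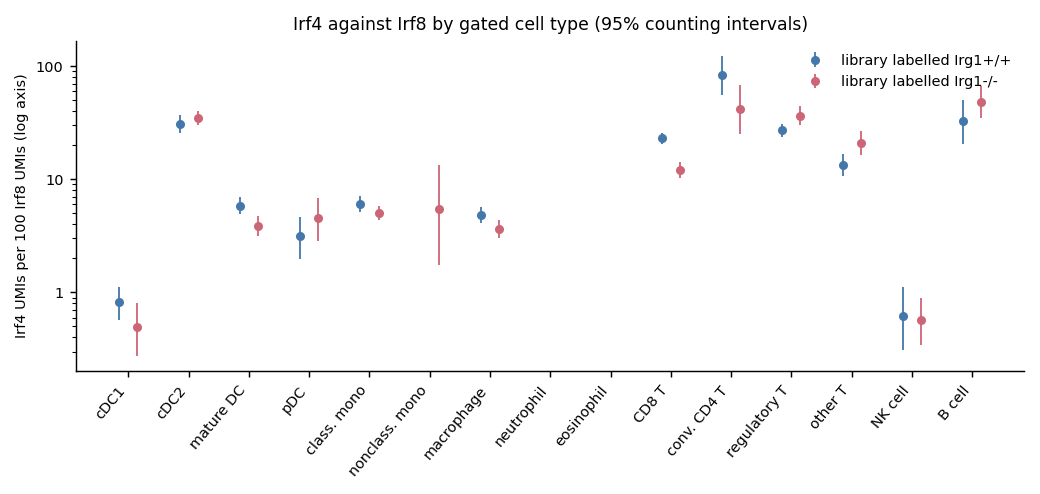
*Irf4* UMIs per 100 *Irf8* UMIs (vertical log axis) by gated cell type (horizontal axis), with blue points for the library labelled *Irg1*+/+, red points for the library labelled *Irg1*-/- and bars for exact 95% counting intervals; points under 5 *Irf4* UMIs are left out. The cDC1 (0.815 and 0.492) and NK points (0.623 and 0.569) lie lowest, and cDC2 (30.8 and 34.8) lie among the T and B cells.

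The DNA-binding partners had their own pattern over these types. *Batf3*, which with *Irf8* specifies cDC1 and is among the held-out cDC1 markers, stood at 100 and 112 CPM in cDC1 and at 26.4 and 29.9 CPM in cDC2, but was higher still in mature dendritic cells, at 165 and 151 CPM. *Spib*, an Ets partner and a held-out pDC marker, was at 798 and 1013 CPM in pDC and at 4.71 and 3.76 CPM in cDC1. *Batf*, the partner of *Irf4* in T cells, was at 80.4 and 68.6 CPM in regulatory T cells and at 20.6 and 20.5 CPM in NK cells. *Zeb2*, a repressor that opposes the cDC1 fate, was at 63.0 and 63.3 CPM in cDC1 and at 572 and 573 CPM in classical monocytes. *Spi1*, the Ets protein PU.1, differed little between cDC1, at 281 and 293 CPM, cDC2, at 333 and 334 CPM, and classical monocytes, at 311 and 329 CPM.

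*Irf5*, which acts downstream of endosomal Toll-like receptors and drives inflammatory cytokines, was highest in classical and mature dendritic cells and monocytes. cDC1 had the highest level at 204 CPM (188 to 221) and 178 CPM (159.5 to 198). Behind them lay nonclassical monocytes at 142 and 111 CPM, mature dendritic cells at 127 and 113 CPM, cDC2 at 123 and 113 CPM and classical monocytes at 114 and 127 CPM, which did not differ beyond their intervals in either library. Macrophages were lower, at 75.1 (70.1 to 80.5) and 84.0 (77.6 to 90.7) CPM. In pDC it was at 43.8 and 52.0 CPM and in neutrophils at 39.6 and 38.3 CPM, on 5 to 13 UMIs. T and NK cells had 12.2 to 36.3 and 19.6 to 29.7 CPM. RNA free in the suspension can add to such values. *C1qa*, a complement gene of macrophages at 1149 and 1127 CPM there, was at 57.6 to 93.3 CPM in the lymphoid gates. If *Irf5* had reached CD8 T cells in the same proportion to its library-wide level as *C1qa*, it would stand at 19.9 and 24.6 CPM, against 22.7 and 19.6 CPM measured. The *Irf5* level in CD8 T cells was therefore at background. Other T cells of the first library, at 36.3 CPM (27.7 to 46.7), lay above the 18.0 CPM obtained in this way. B cells, at 66.4 and 63.2 CPM, lay above the 21.4 and 23.4 CPM obtained in the same way from *Lyz2*, a lysozyme gene of myeloid cells, on 10 and 11 UMIs.

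Among the proteins that activate *Irf5* and *Irf7*, the transport protein *Unc93b1* and the single-stranded RNA sensor *Tlr7* were high in pDC. *Unc93b1* was at 841 and 805 CPM in pDC, 384 and 374 CPM in cDC1 and 322 and 380 CPM in classical monocytes. *Tlr7* was at 390.4 and 416 CPM in pDC and 112 and 101 CPM in classical monocytes, but at 8.75 and 9.66 CPM in cDC1. *Myd88*, the adaptor shared by these receptors, was at 90.9 and 120.1 CPM in pDC and 185 and 212 CPM in classical monocytes.

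*Irf7*, the regulator of interferon-alpha genes that is itself induced through ISGF3, was highest in classical monocytes, at 222 CPM (211 to 234) and 403 CPM (389 to 417). Neutrophils (198 CPM), pDC (192 CPM) and nonclassical monocytes (187 CPM) did not differ from them beyond their intervals in the first library, and in the second they lay at 324, 312 and 222 CPM. Macrophages had 134 and 234 CPM, cDC2 111 and 196 CPM and cDC1 86.5 and 166 CPM. T and NK cells had lower values than cDC2, with NK cells at 77.7 and 138 CPM, CD8 T cells at 66.8 and 75.6 CPM and conventional CD4 T cells at 67.1 and 164 CPM. Intervals overlapped that of cDC2 for conventional CD4 T cells in both libraries and for NK cells in the first. B cells were at 113 and 103 CPM. Mature dendritic cells were the lowest in the first library, at 41.9 CPM (34.1 to 50.9), and were at 118 CPM (104 to 134) in the second.

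*Irf9*, the DNA-binding part of ISGF3, varied over a narrow range, with 2.47 and 2.79-fold between its highest and lowest type. B cells had the highest level in the library labelled *Irg1*+/+, 285 CPM (206 to 384), and eosinophils in the library labelled *Irg1*-/-, 296 CPM (201 to 420), on 43 and 31 UMIs. Every neighbour in its order overlapped in interval with the next, in both libraries.

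*Irf1*, induced by interferon gamma and a driver of antigen presentation genes, was highest in granulocytes and nonclassical monocytes. Eosinophils had 2238 CPM (1823 to 2719) and 1557 CPM (1327 to 1816), on 101 and 163 UMIs and a median of 794.5 and 1050 UMIs per cell, the lowest depth of these types. Nonclassical monocytes had 1605 and 2223 CPM and neutrophils 1084 and 1327 CPM. Classical monocytes were at 741 and 996 CPM. In the first library pDC (855 CPM) and B cells (743 CPM) had higher values, with intervals that overlapped theirs. In the second cDC2 (1149 CPM) lay above them beyond the intervals. The lowest level was in cDC1 in the first library, 299 CPM (280.0 to 319.7), and in CD8 T cells in the second, 475 CPM (450.5 to 499.7).

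*Irf2*, too, varied little, with 2.40 and 2.58-fold between types. It was highest in classical monocytes, 419 CPM (404 to 435) and 443 CPM (429 to 458), and B cells at 405 and 425 CPM did not differ from them beyond their intervals. The level in cDC1 was 174 and 180 CPM and in mature dendritic cells 181 and 213 CPM. *Irf3*, present in most cells and activated through *Sting1* and *Mavs*, was found on few UMIs. B cells were at 79.6 (41.1 to 139) and 80.4 (43.9 to 135) CPM, NK cells at 59.0 and 46.4 CPM and classical monocytes at 27.1 (23.3 to 31.5) and 28.0 (24.5 to 31.8) CPM.

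**Figure D2:**
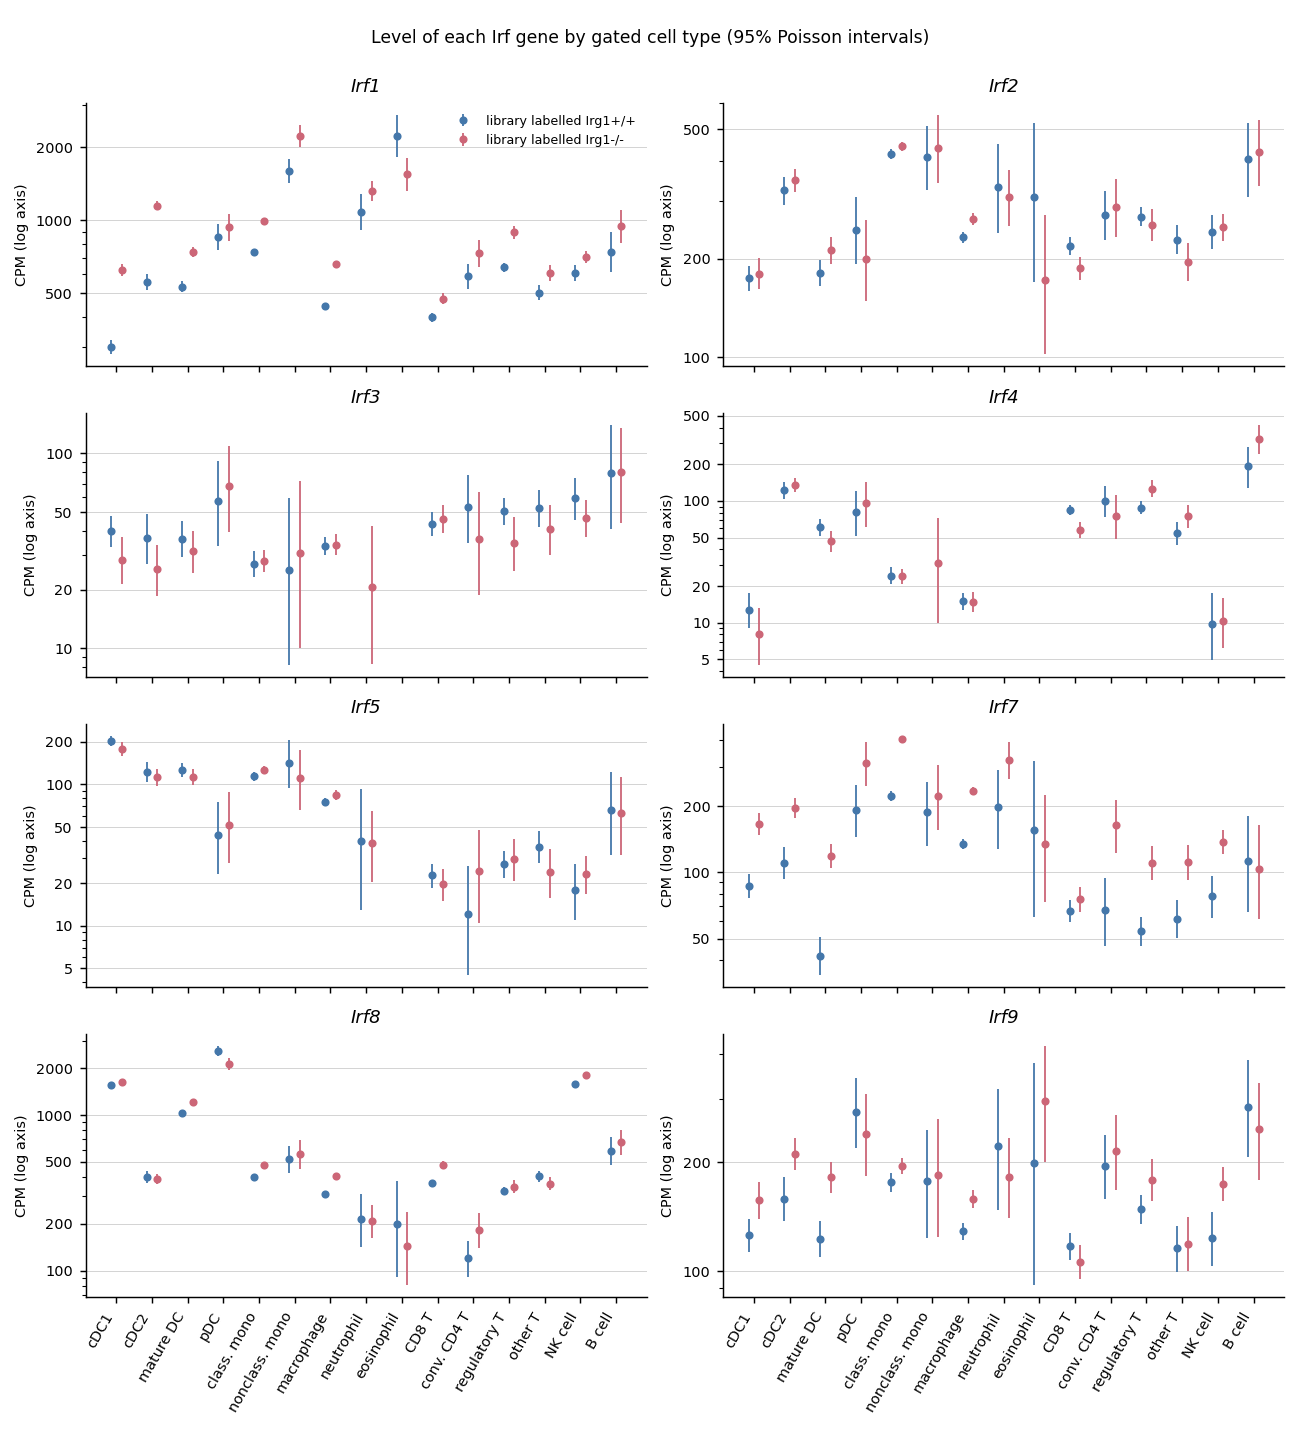
Level of each member in CPM (log axis) by gated cell type, with 1 panel per gene, blue points for the library labelled *Irg1*+/+, red points for the library labelled *Irg1*-/- and bars for exact Poisson 95% intervals; points under 5 UMIs are left out. *Irf8* spans 21.5-fold over the types of the first library and *Irf2* 2.40-fold, and the red *Irf7* points lie above the blue ones in classical monocytes (403 against 222 CPM).

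Over the 13 types, 7 of the 8 members had their highest level in the same type in both libraries, the exception being *Irf9*. Of 9012 genes with at least 500 UMIs, 48.8% had the same highest type in both. With pDC and nonclassical monocytes added, *Irf1* was a further exception (eosinophils in the first library, nonclassical monocytes in the second). Among the 13 types, only for *Irf5* was the highest type apart from all others in interval in both libraries. Genes whose log2 level followed a member most closely over these 26 points (13 types in 2 libraries, which share depth and free RNA within a library) are given as a description, among 9012 genes. For *Irf7* they were *Rnf213* (Pearson r 0.86), the interferon-induced *Oas2* (0.86) and *Sirpb1c* (0.83). For *Irf5* they were *Gm6377* (0.96), the costimulatory gene *Cd86* (0.94) and *Cd74* (0.92), the chaperone of MHC class II. For *Irf8* they were *Lrrk1* (0.83), *Tmcc3* (0.74) and *Armcx2* (0.71). These 3 members gave values from 0.61 to 0.96 for the same genes without neutrophils and eosinophils. For *Irf2* they were *Parp14* (0.84), *Pxk* (0.81) and *9930111J21Rik2* (0.80), and for *Irf9* *Aff4* (0.80), *Nfkbid* (0.76) and *Itsn2* (0.75). Values for *Irf1* (*Kdm6b* 0.86, *Map3k5* 0.83 and *Pim1* 0.81), *Irf3* (*Zfp280d* 0.96, *Tbp* 0.96 and *Zdhhc4* 0.96) and *Irf4* (*Crip2* 0.85, *Lnx2* 0.81 and *Dnaja2* 0.81) were lower without the granulocytes. The first of each was then 0.64, 0.81 and 0.76.

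The libraries were next compared within each cell type, as the log2 ratio of the CPM in the library labelled *Irg1*-/- over that in the library labelled *Irg1*+/+. *Irf7* was higher by at least 1.5-fold in 10 of 13 types, and *Irf1* in 2, whereas *Irf2*, *Irf3*, *Irf5* and *Irf9* reached that size upward in none. With TMM factors, which rescale each pair of libraries, 3 more pairs passed, *Irf1* in macrophages (0.60) and *Irf9* in mature dendritic cells (0.60) and eosinophils (0.66). Of 97 pairs of member and type with at least 20 UMIs, 14 were higher and 2 lower by at least 1.5-fold in the library labelled *Irg1*-/-. Among all pairs of gene and type with as many UMIs, 6.22% were higher and 8.73% were lower. The number of lower pairs ran from 0 to 6 over the alternative settings, and 5 pairs were higher by at least 2-fold. Without the 10 pairs of *Irf7*, 4 were higher, 1 each of *Irf4* and *Irf8* and 2 of *Irf1*. The number of cells behind a value ran from 52 eosinophils in the first library to 1457 classical monocytes in the second.

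In classical monocytes the *Irf7* levels of 222 and 403 CPM gave a log2 ratio of 0.86 (0.77 to 0.95), above that of 97.3% of genes. No other member was past 1.5-fold there, and the share of all genes that were higher was 5.94%. The share of cells with an *Irf7* UMI was 49.1% and 67.7%, and with all cells thinned to 2000 UMIs, and 144 and 170 shallower ones left out, it was 28.1% (25.4 to 30.8) and 45.3% (42.6 to 48.1). In CD8 T cells, where most *Irf7* UMIs of the second library were at the level of free RNA given below, it was 11.4% and 17.9% after thinning. In macrophages the levels of 134 and 234 CPM gave 0.80 (0.70 to 0.90), where 5.07% of genes were higher, and the share of thinned cells with a UMI was 22.9% and 32.0%, with 212 and 119 shallower cells left out (52.6% and 65.4% before). Thinned in this way, the ratio was 1.07 in classical monocytes and 0.49 in macrophages, under the 1.5-fold line. The gated cells were spread differently over unsupervised (Leiden) clusters in the 2 libraries. Of classical monocytes, cluster 3 held 32.4% and 12.9%, cluster 14 6.94% and 16.6%, cluster 8 9.97% and 17.0%, and cluster 12, with the highest *Irf7* level (793 and 1021 CPM), 6.21% and 12.3%. Within the 6 clusters with at least 50 gated cells per library the *Irf7* ratio was above 0 in each, from 0.12 (−0.13 to 0.37) to 1.30 (0.25 to 2.51), and past 1.5-fold in 3. Of macrophages, cluster 4 held 21.7% and 44.0% and cluster 9 24.0% and 11.2%, and the ratio within 4 clusters was 0.08 to 0.84, past 1.5-fold in 1. The ratio was thus smaller than over the whole gate in 4 of 6 clusters of classical monocytes and in 3 of 4 of macrophages. The clusters were built with *Irf7* and the interferon-induced genes among their genes. The next highest members in macrophages were *Irf1* at 0.58 (0.52 to 0.64), from 443 and 663 CPM, and *Irf8* at 0.39 (0.32 to 0.47), from 308.5 and 406 CPM.

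Mature dendritic cells had the largest *Irf7* ratio, 1.49 (1.16 to 1.84), above that of 99.4% of genes and where 6.05% were higher. Free RNA can add to the 41.9 and 118 CPM behind this ratio, since *C1qa* stood at 77.2 and 80.7 CPM in these cells. Library-wide, *C1qa* was at 375 and 335 CPM and *Irf7* at 120 and 236 CPM. Free RNA in the same proportion as *C1qa* would thus be a large part of both *Irf7* levels. The printed ratio has none of it taken off. In cDC1 the *Irf7* ratio was 0.94 (0.70 to 1.19) and in cDC2 0.82 (0.54 to 1.12), with 6.09% and 6.68% of genes higher. *Irf1* was past 1.5-fold in these 2 types, and just short of it in macrophages. In cDC1 it was at 299 (280.0 to 319.7) and 623 (588 to 660.0) CPM, a log2 ratio of 1.06 (0.93 to 1.19), and in cDC2 at 558 (517 to 601) and 1149 (1099 to 1199.7) CPM, 1.04 (0.92 to 1.17). The levels of each pair were well apart. In mature dendritic cells *Irf1* was at 0.47 (0.37 to 0.58) and in classical monocytes at 0.43 (0.37 to 0.48), and it was above 0 in 12 of 13 types. Eosinophils were the exception, at −0.53 (−0.89 to −0.15). Within the clusters of classical monocytes, *Irf1* ran from −0.12 (−0.28 to 0.05) in cluster 14 to 0.49 (0.36 to 0.62) in cluster 3. Within those of macrophages it ran from 0.19 (0.01 to 0.36) in cluster 5 to 0.92 (0.38 to 1.45) in cluster 1.

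Genes of other cell types moved with some of these ratios. The median score of classical monocyte markers was 0.180 and 0.230 in cDC2, and in cDC1 of the library labelled *Irg1*-/- these markers had the highest score of the other types, 0.2003. Of 10 immediate early genes, which dissociation of tissue induces, 5 were higher by at least 1.5-fold in cDC2, 2 in cDC1 and 2 in classical monocytes. In macrophages and mature dendritic cells 0 passed that size, and none was lower in any of these types. Of all genes 5.07% to 6.68% were higher there. Their summed level was 6320.4 and 9753 CPM in cDC2, 6509.9 and 8297 CPM in cDC1 and 8638 and 10619 CPM in classical monocytes. It was also higher in the second library in macrophages, at 9038 and 10951 CPM, and in mature dendritic cells, at 4922 and 6166 CPM. Conventional CD4 T cells, at 9294 and 7510 CPM, were the only type described with a lower sum, and their median log2 ratio was still 0.18. Medians of these genes ran from 0.11 in other T cells to 0.77 in nonclassical monocytes. In eosinophils the summed level was 16418 and 20713 CPM, while *Irf1* was lower there, and in neutrophils it was 17185 and 25809 CPM. In neutrophils 5 of the 10 were higher, beside 11.9% of all genes. Hemoglobin genes had no or nearly no UMIs in these gates. *Gzma*, a gene of NK cells, was at 139 and 317 CPM in classical monocytes, 91.8 and 271 CPM in macrophages and 78.4 and 206 CPM in mature dendritic cells. In cDC2 it was at 206 and 187 CPM. *S100a8*, a gene of neutrophils, was at 5.61 and 54.8 CPM in cDC2 and at 4.15 and 23.5 CPM in mature dendritic cells. Free RNA was estimated from *C1qa* or *Lyz2* alone. The part of these genes in the *Irf1* and *Irf7* ratios was not tested.

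Among lymphocytes *Irf7* was past 1.5-fold in conventional CD4 T cells (1.28; 0.63 to 1.96), regulatory T cells (1.03; 0.69 to 1.37), other T cells (0.85; 0.46 to 1.24) and NK cells (0.82; 0.47 to 1.19). The shares of genes that were higher there were 7.51%, 5.02%, 6.17% and 5.66%. CD8 T cells did not reach that size, with 66.8 (59.5 to 74.8) and 75.6 (66.2 to 86.0) CPM and a ratio of 0.18 (−0.08 to 0.43). In B cells the ratio was −0.13 (−1.17 to 0.92), on 17 and 18 UMIs, which cannot show a difference of this size. Free RNA bears on these low levels. In proportion to *C1qa* it would give 51.6 CPM of *Irf7* in NK cells of the library labelled *Irg1*-/-, against 138 CPM measured. In CD8 T cells it would give 29.2 and 65.6 CPM, and taking it off left 37.7 and 9.97 CPM, a log2 ratio of −1.92 (−1.23 in proportion to *Lyz2*). The 65.6 CPM is near the lower limit of the 75.6 CPM measured (66.2 to 86.0). What was left in the second library can thus hardly be told from none, and the size of this ratio, given without an interval, cannot be read. For NK cells, regulatory T cells and conventional CD4 T cells the ratio was 0.66, 0.94 and 1.49 after the same step, and for other T cells it was 0.54, short of 1.5-fold, or 0.95 in proportion to *Lyz2*.

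The rest of the *Irf7* ratios were in granulocytes, where the counts were small. Neutrophils had 198 and 324 CPM on 25 and 110 UMIs, a ratio of 0.69 (0.07 to 1.40), with 11.9% of genes higher. In eosinophils it was −0.26 (−1.62 to 1.34). pDC, outside the counts, were at 0.70 (0.19 to 1.22) and nonclassical monocytes at 0.24 (−0.46 to 0.94).

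*Irf4* was past 1.5-fold upward in B cells and downward in cDC1, and neither held under all alternatives. In B cells it was at 192 and 322 CPM on 29 and 56 UMIs, a ratio of 0.73 (0.07 to 1.44), where 12.2% of genes were higher. In cDC1 it was at 12.8 and 8.05 CPM on 38 and 15 UMIs, −0.64 (−1.64 to 0.23), where 6.94% of genes were lower, with levels near free RNA. The B cell ratio was 0.31 with Leiden clusters, and that of cDC1 ran from −0.67 to 0.047 over 10 alternatives and was past 1.5-fold in 5. Regulatory T cells had a ratio of 0.52 (0.22 to 0.81) and CD8 T cells of −0.54 (−0.81 to −0.28), both short of 1.5-fold, on far more UMIs. *Irf8* was past 1.5-fold in conventional CD4 T cells alone, 120 and 182 CPM and 0.60 (0.06 to 1.14), where most of the level was at background. Its ratio was 0.39 (0.29 to 0.49) in CD8 T cells, 0.25 (0.18 to 0.33) in classical monocytes and 0.06 (−0.01 to 0.13) in cDC1. In pDC, where it was highest, it was −0.28 (−0.44 to −0.12).

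The remaining members showed small ratios. *Irf9* was above 0 in 10 of 13 types and largest in mature dendritic cells, 123 and 182 CPM and 0.57 (0.35 to 0.79), followed by eosinophils at 0.52 (−0.53 to 1.83), on 9 and 31 UMIs, and NK cells, 123 and 175 CPM and 0.50 (0.21 to 0.80). *Irf2* was past 1.5-fold in eosinophils alone, where it was lower at 310 and 172 CPM on 14 and 18 UMIs, −0.86 (−1.94 to 0.27), with 14.4% of genes lower. In the other types counted it lay between −0.23 and 0.23. *Irf5* ratios lay between −0.58 in other T cells and 0.36 in NK cells, and in cDC1, its highest type, the ratio was −0.19 (−0.39 to 0.00). *Irf3* had a median of −0.35 over 11 types and intervals below 0 in cDC1, −0.49 (−0.99 to −0.02), and regulatory T cells, −0.52 (−1.06 to −0.04).

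**Figure D3:**
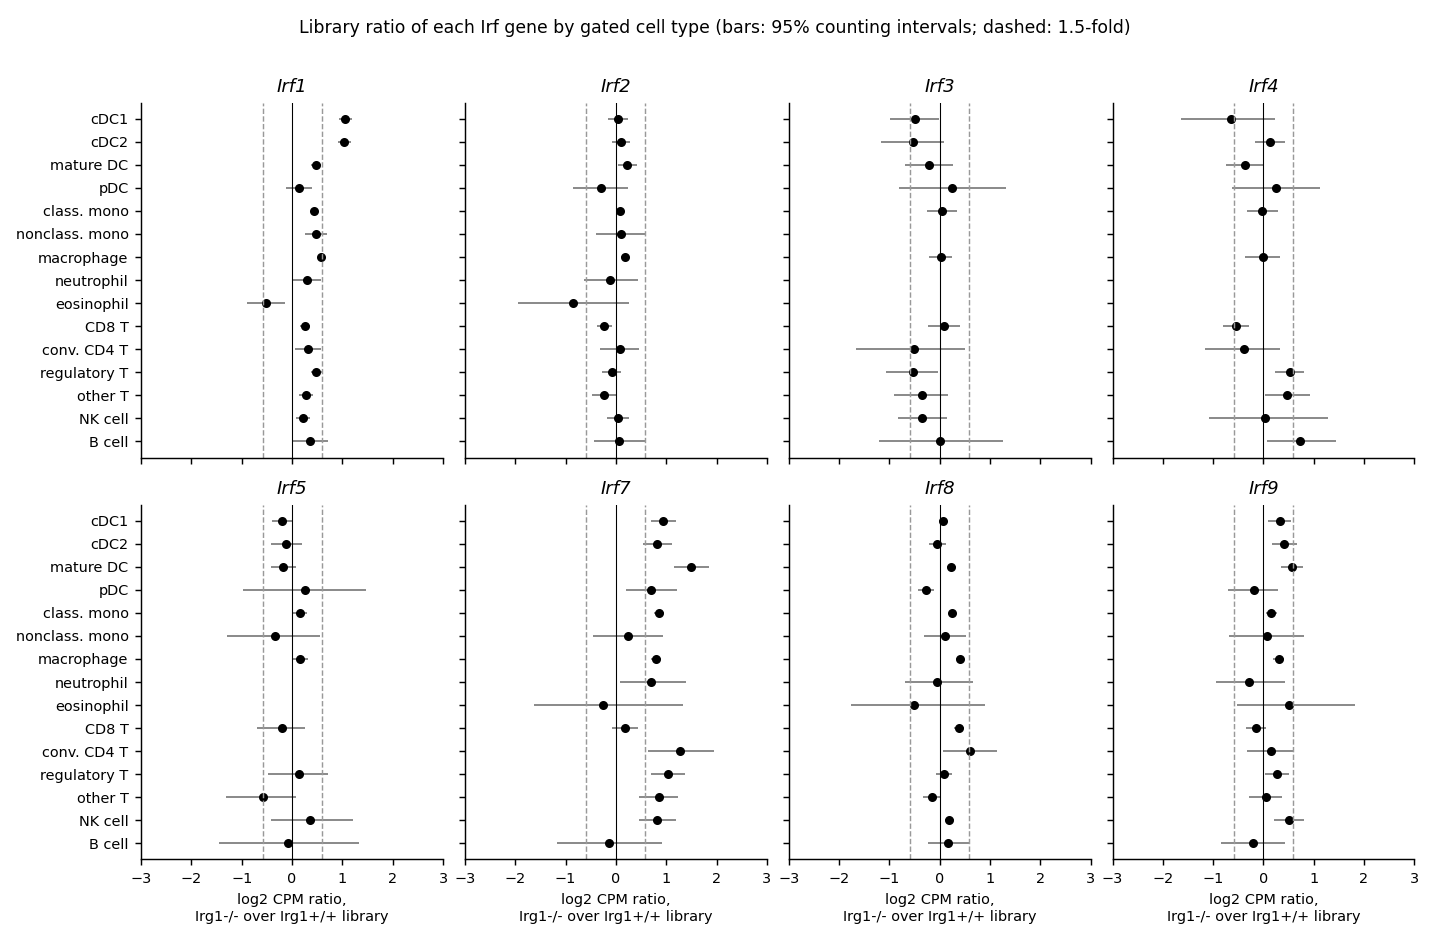
Log2 ratio of CPM in the library labelled *Irg1*-/- over that in the library labelled *Irg1*+/+ (horizontal axis) for each member by cell type, with bars for exact binomial 95% intervals and lines at 0 and at 1.5-fold either way; pairs under 20 UMIs are left out, and pDC and nonclassical monocytes are drawn beside the 13 types counted. *Irf7* lies past the upper line in 10 of those 13, from 0.69 in neutrophils to 1.49 in mature dendritic cells, and *Irf1* in cDC1 (1.06) and cDC2 (1.04).

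The genes around *Irf7* and *Irf9* in interferon signaling moved as follows. Of 30 listed type I interferon-induced genes, none of them a member, 7 of 30 were higher and 0 lower by at least 1.5-fold in classical monocytes, where 5.94% of all genes were higher and 5.59% lower. Their median log2 ratio was 0.49, against −0.00 for all genes. In macrophages 9 of 30 were higher and 0 lower (median 0.40), with 5.07% of all genes higher and 6.21% lower, and in cDC1 12 of 29 were higher and 0 lower (median 0.47), with 6.09% and 6.94%. In mature dendritic cells 21 of 30 were higher and 0 lower, at a median of 0.86, where 6.05% of all genes were higher and 8.52% lower. Summed over the list the levels were 6320.3 and 8662 CPM in classical monocytes and 2035 and 3453 CPM in mature dendritic cells. Examples in classical monocytes were *Ifi44*, at 27.0 and 93.2 CPM, and *Isg15*, a ubiquitin-like modifier, at 397 and 595 CPM. *Rsad2*, an antiviral enzyme, went the other way there, with 476 and 398 CPM.

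The list was mixed in cDC2 and granulocytes. In cDC2 6 of 30 were higher and 5 lower, where 6.68% of all genes were higher and 9.78% lower. In neutrophils 6 of 28 were higher and 5 lower, against 11.9% of all genes higher and 21.6% lower, and the summed level was 9660.5 and 8536 CPM. In eosinophils 3 of 8 were higher and 1 lower, where 14.5% of all genes were higher and 14.4% lower. Among lymphocytes most types had more genes higher than lower. NK cells had 10 of 29 higher (median 0.23), other T cells 11 of 29 (median 0.42), conventional CD4 T cells 8 of 25 (median 0.39) and B cells 6 of 11 (median 0.70), with 0 lower in each. Of all genes 5.66%, 6.17%, 7.51% and 12.2% were higher in these types and 7.72%, 9.53%, 12.8% and 13% lower. Regulatory T cells had 10 of 30 higher and 2 lower (median 0.33), with 5.02% of all genes higher and 8.55% lower. CD8 T cells, in which the *Irf7* ratio was 0.18 before free RNA was taken off, had 0 of 30 higher and 5 lower, with 3.64% of all genes higher and 7.44% lower, and a median of −0.13.

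Of 8 listed genes of the type I interferon receptor and its signaling, 2 were higher and 0 lower in classical monocytes (median 0.31), where 5.94% of all genes were higher and 5.59% lower. In CD8 T cells 0 were higher and 0 lower (median −0.13), where 3.64% and 7.44% of all genes were. The receptor chain *Ifnar1* was at 141 and 130 CPM in classical monocytes, while *Stat2* was at 173 and 269 CPM and the feedback inhibitor *Socs1* at 58.3 and 115 CPM. *Usp18*, a brake on the type I receptor, was at 27.4 and 77.0 CPM in mature dendritic cells, a log2 ratio of 1.48 (1.07 to 1.93). Of 15 listed adaptors and kinases upstream of *Irf3*, *Irf5* and *Irf7*, 1 was higher and 0 lower in classical monocytes and in macrophages alike, and of 7 repressors 0 were past 1.5-fold in either, where 5.94% and 5.07% of all genes were higher, so these counts were near those of all genes. Among 18 DNA-binding partners 2 were higher and 1 lower in classical monocytes, the lower one being *Prdm1*, the repressor Blimp-1, at 225 and 141 CPM, where 5.59% of all genes were lower.

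Type I interferon transcripts were scarce. Over 18 listed genes there were 158 and 46 UMIs, of which *Ifnb1* had 152 and 39. In macrophages *Ifnb1* was at 8.62 and 3.48 CPM, a ratio of −1.29 (−1.98 to −0.68), the opposite direction to *Irf7* in the same cells. *Ifng* was at 193 and 256 CPM in NK cells, 254 and 266 CPM in CD8 T cells and 408 and 346 CPM in other T cells. Of 24 type II interferon and *Irf1*-linked genes, 7 of 23 were higher and 0 lower in cDC1, 6 and 1 in cDC2, 10 and 0 in mature dendritic cells, 6 and 1 in classical monocytes and 6 and 0 in macrophages. Medians lay between 0.32 and 0.48 in these types, where 5.07% to 6.68% of all genes were higher. In the other types there were 0 higher and 1 lower of 22 in regulatory T cells (median 0.03), 1 and 2 of 23 in other T cells (0.07), 2 and 0 of 22 in NK cells (0.16), 3 and 1 of 22 in CD8 T cells (0.15), 3 and 0 of 19 in conventional CD4 T cells (0.33), 2 and 1 of 19 in B cells (0.16), 6 and 3 of 20 in neutrophils (0.16) and 1 and 3 of 11 in eosinophils (−0.15). In neutrophils and eosinophils these counts stand beside 11.9% and 14.5% of all genes higher and 21.6% and 14.4% lower, and in regulatory, other and CD8 T cells beside 5.02%, 6.17% and 3.64% higher and 8.55%, 9.53% and 7.44% lower. In NK, conventional CD4 T and B cells the shares were 5.66%, 7.51% and 12.2% higher and 7.72%, 12.8% and 13% lower, so the counts in B cells were no greater than those of all genes. Differences between the types were not tested. *Cxcl9*, the chemokine of interferon gamma responses, was at 276 and 777 CPM in mature dendritic cells, *Cxcl10* at 63.6 and 165 CPM in cDC1, and the GTPase gene *Iigp1* at 111 and 334 CPM in classical monocytes. *Nos2*, another target of *Irf1*, was the one lower in classical monocytes, at 104 and 48.7 CPM.

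Cells of 1 type in 1 library were then ordered by the share of their UMIs in the 30 type I interferon-induced genes, after thinning to 2000 UMIs per cell, and divided into 3 groups of equal size, bottom, middle and top. These are cells of 1 sample and not replicates, so the values describe the library. In classical monocytes of the library labelled *Irg1*+/+ (1080 cells) *Irf7* stood at 72.2, 165 and 359.7 CPM from the bottom to the top group, a log2 ratio of top over bottom of 2.31 (1.88 to 2.78), above that of 99.6% of 6691 genes outside the list. In the library labelled *Irg1*-/- (1287 cells) it stood at 192, 312 and 747 CPM, with a ratio of 1.95 (1.71 to 2.21). Macrophages were alike, with 60.1, 96.9 and 326 CPM and then 117, 179 and 383 CPM. Ratios there were 2.42 (1.88 to 3.04) and 1.70 (1.26 to 2.18).

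The other members varied less along this order. In classical monocytes *Irf1* had ratios of top over bottom of 0.59 and 0.49, *Irf8* of 0.71 and 0.46 and *Irf2* of 0.32 and 0.47, with all 6 intervals above 0. *Irf9* had 0.89 (0.52 to 1.29) in the first library but 0.12 (−0.18 to 0.43) in the second, its bottom group being at 122 and 207 CPM. Intervals of *Irf3*, *Irf4* and *Irf5* included 0 in classical monocytes of both libraries. *Irf8* in macrophages was nearly flat, at 0.19 (−0.14 to 0.52) and 0.06 (−0.26 to 0.39). In CD8 T cells it went down, from 415 to 234 CPM in the first library, −0.82 (−1.24 to −0.42), and from 495 to 357 CPM in the second, −0.47 (−0.95 to 0.01). Depth before thinning also fell along this order in CD8 T cells, from a median of 9258.5 to 3966 UMIs per cell in the first library and from 12067 to 5736 in the second. For *Irf7* in NK cells both intervals included 0, with 0.40 (−0.60 to 1.44) and 0.56 (−0.02 to 1.15). The counts were small, with 16 and 21 UMIs in the bottom and top group of the first library, and cannot show whether the groups differed.

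**Figure D4:**
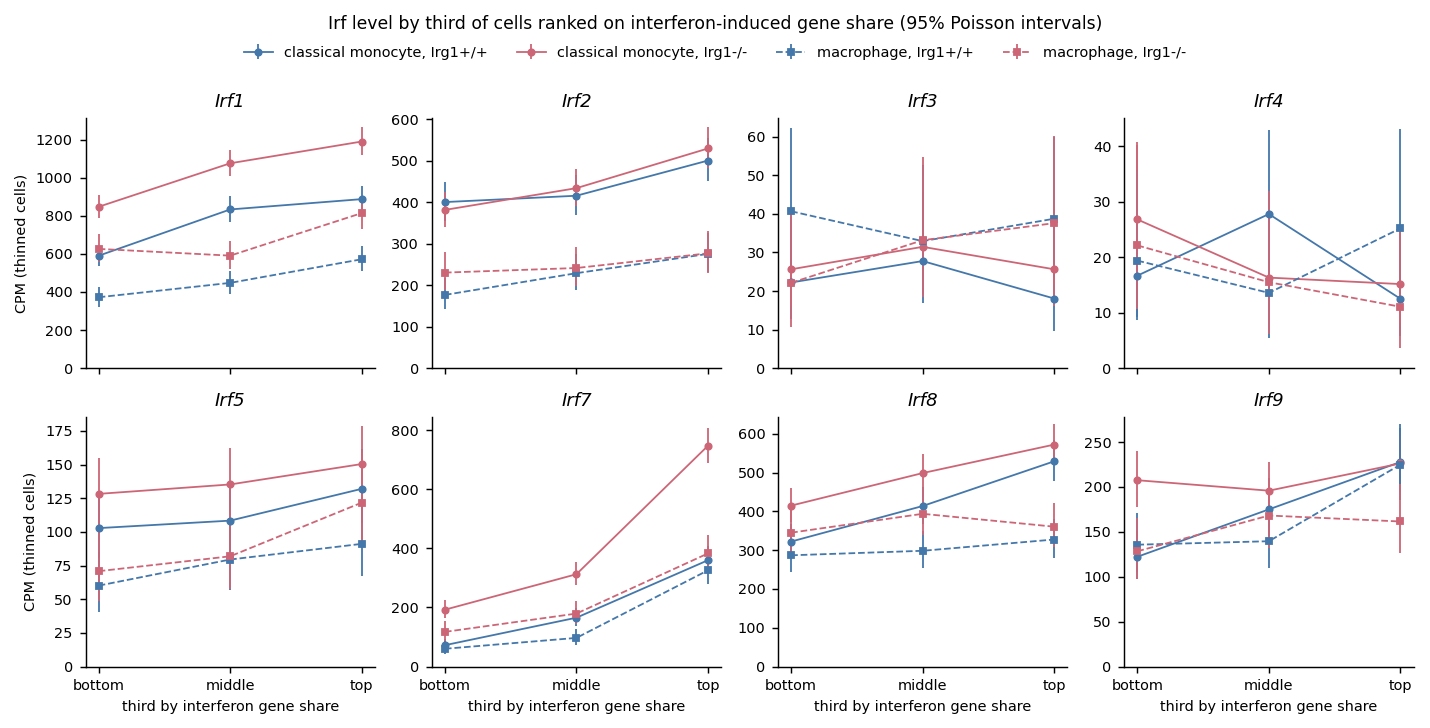
Level of each member in CPM of thinned cells (vertical axes from 0) in the bottom, middle and top group of cells by interferon-induced gene share, for classical monocytes (solid lines, circles) and macrophages (dashed lines, squares) of the library labelled *Irg1*+/+ (blue) and the library labelled *Irg1*-/- (red), with exact Poisson 95% bars. *Irf7* climbs most, from 72.2 to 359.7 CPM and from 192 to 747 CPM in classical monocytes, and *Irf3* and *Irf4* have intervals that overlap across the groups.

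The libraries were also compared within 3 ranges of interferon-induced gene share, with the same limits for both. Whether the share was equal between the libraries inside a range was not tested. Of thinned classical monocytes, 21.0% and 38.9% fell in the high range. The *Irf7* ratio between libraries was 1.12 (0.70 to 1.56) in the low, 0.42 (0.13 to 0.72) in the middle and 0.65 (0.42 to 0.89) in the high range. In the high range its levels were 441 and 693 CPM. In macrophages the ratio was 0.81 (0.13 to 1.48), 0.31 (−0.17 to 0.80) and −0.06 (−0.38 to 0.27), with 393 and 377 CPM in the high range. *Irf7* was thus higher in classical monocytes of the library labelled *Irg1*-/- in each range by more than counting error, but in macrophages in the low range alone. *Irf1* was higher in macrophages in all 3 ranges, with ratios of 0.66, 0.41 and 0.35 and all intervals above 0.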

How the data were processed

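The authors captured cells with BD Rhapsody, trimmed reads with fastp, listed barcodes with UMI-tools and aligned to the mouse genome with STAR. Per the submitters' processing notes the tools included CASAVA 1.8, UMI-tools and Seurat, with the build GRCm38. The deposited matrices list raw counts of UMIs by gene and by cell. Whether counting used strand is not given in the sources used here. Any batch between the 2 libraries cannot be told apart from the genotype.

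As in the study's methods, cells had to show more than 200 genes and less than 10% of UMIs from mitochondria. The gate score is the mean over markers of log1p of the marker's UMIs, normalised to the cell's total and scaled by the 99th percentile, with a minimum of 0.2 and a lead of 0.05 over the next type. The markers were fixed at the outset and the scoring rule was set after the files had been seen. The members and gene lists were chosen with earlier results of these data known. Named genes are the members, *Acod1*, the genes of the lists and, for each member, the 3 genes with the highest Pearson r of log2(CPM + 1) among genes with at least 500 UMIs. Intervals are exact Poisson, Clopper-Pearson or binomial at 95%, and ratios used a pseudocount of 0.5 UMIs and a minimum of 20 UMIs. No doublet caller was run, and the 5% of cells with the most UMIs were left out as an alternative. Steps were tested on simulated data. Alternatives were another mitochondrial limit, gate margin, clustering, thinning, mean over cells, TMM factors, pseudocount, UMI minimum, fold and interferon-share limits. Scripts ran in Python 3.11.15 with scipy 1.17.1, pandas 2.3.3, numpy 2.4.6, scanpy 1.11.5, leidenalg 0.10.2, matplotlib 3.10.9, and in R 4.3.3 with edgeR 4.0.16 for TMM factors only.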

Additional observations from a re-analysis of the deposited data

Results flagged for a closer look

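The ratio of *Irf4* between the libraries had opposite directions past 1.5-fold in 2 cell types. It was 0.73 in B cells, on 29 and 56 UMIs, and −0.64 in cDC1, on 38 and 15 UMIs. The difference between the types was not tested, since there was 1 library per genotype, and the interval in cDC1 includes 0. In cDC1 the ratio stayed past 1.5-fold under 5 of 10 alternatives, turned to 0.047 as a mean over cells, and both levels were near that of free RNA, and in B cells it was 0.31 with Leiden clusters.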

How the results depend on the processing

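No paired analysis was possible because each genotype has 1 library. No library was left out for the same reason. Depth limits the granulocytes, B cells, pDC and nonclassical monocytes most, and a pair under 20 UMIs was not compared.

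The number of members highest in the same type in both libraries stayed within 1.5 times 7 under each alternative run. That limit is wide for a count out of 8, so it cannot show a small change. Of pairs lower by at least 1.5-fold there were 2 as reported. There were 6 with a mitochondrial limit of 5%, 4 with the stricter gate margin, 6 without the 5% of cells with the most UMIs, 4 after thinning, 5 with the mean over cells of each cell's CPM, 0 with a minimum of 100 UMIs and 0 at a 2-fold limit. Of pairs higher there were 14, and 5 at the 2-fold limit. The *Irf7* ratio in classical monocytes was 0.86, and 0.74 with Leiden clusters named from the same markers, 1.07 after thinning, and 1.12, 0.42 and 0.65 in cells of low, middle and high interferon-induced gene share. Its ratio of the top over the bottom group by interferon-induced gene share was 2.31, and 2.87 without thinning and 3.11 with 5 groups. The cause of these changes was not tested, apart from the limits themselves.

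The *Irf4* ratio in cDC1 reversed to 0.047 as a mean over cells and stayed past 1.5-fold under 5 of 10 alternatives. *Irf7* in macrophages fell short of 1.5-fold without the cells with the most UMIs (0.53), after thinning (0.49) and as a mean over cells (0.54). *Irf7* in other T cells was at 0.39 after thinning, *Irf7* in neutrophils fell short under 1 alternative of 9, *Irf8* in conventional CD4 T cells under 3 of 11 and *Irf4* in B cells with Leiden clusters (0.31). TMM factors shifted all ratios of a type by up to 0.25, in neutrophils, raised the pairs past 1.5-fold upward from 14 to 17 and took none away. Alternatives for ranges of interferon-induced share, at least 40 cells, likeness without granulocytes, single Leiden clusters and free RNA were chosen after seeing the data.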

Other observations

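*Acod1*, the gene targeted in the library labelled *Irg1*-/-, had ratios above and below 0, depending on the cell type. It was at 177 and 139 CPM in classical monocytes and at 975 and 497 CPM in eosinophils, but at 103 and 138 CPM in macrophages and at 13.6 and 30.5 CPM in cDC2, a log2 ratio of 1.13 (0.35 to 2.04) on 17 and 54 UMIs. The cDC2 levels were of the size seen in CD8 T cells (21.6 and 22.3 CPM) and NK cells (22.3 and 18.3 CPM). Free RNA can add to levels this low, and its part in the cDC2 ratio was not tested. Nor was the difference between the types tested. Neutrophils, which had the highest level, were 58 and 174 of the kept cells.

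Krüppel-like factor *Klf4*, on the list of DNA-binding partners, was at 160 and 98.2 CPM in NK cells, a log2 ratio of −0.70 (−1.01 to −0.40), and at 264 and 352 CPM in classical monocytes, 0.42 (0.33 to 0.50). Whether these directions differ between the types was not tested.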
